A study of Mus musculus with 8 samples.

Results

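Nr4a factors and feedback response genes were described in individual LT-HSC, the long-term stem cells of the blood, sorted by whether they carried the surface protein Dlk1. The set held 10 genes of the 18174 gene symbols in the deposited tables: Nr4a1, Nr4a2, Zfp36, Zfp36l1, Dusp1, Btg2, Socs3, Gem, Nfkbia and Tsc22d3. They were chosen by name, with earlier results of these libraries (levels and differences between the sorts) known. The rule has no threshold and does not record which values weighed in the choice. Their differences between the sorts are therefore a description of these libraries. The donors were male C57BL/6J mice, 18 months old, with no treatment and no engineered allele named in the labels, and their bone marrow was the source. Both groups were negative for lineage markers, CD48 and CD34 and positive for CD150, Kit and Sca1, and they differed in being Dlk1+ or Dlk1-. Each group had 4 libraries, made with mCEL-Seq2, a plate method that reads the 3' end of each RNA molecule and counts molecules by random tags (unique molecular identifiers, UMIs), with a barcode per well. Per the table names, plate 5 carried replicates 1 and 2 of each sort and plate 6 the others. The labels give no number of mice, so the spread between libraries may be technical in part or whole.

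Immediate early genes are transcribed within minutes of a signal, without new protein synthesis. Several of their products then end the response. Nr4a1 and Nr4a2 are orphan nuclear receptors that act as transcription factors, and loss of Nr4a genes is known to affect hematopoietic stem cell quiescence. Zfp36 and Zfp36l1 bind AU-rich elements and promote decay of the mRNA that carries them. Dusp1 is a phosphatase that switches off MAP kinases, Btg2 is an antiproliferative protein that binds the deadenylation machinery, and Socs3 blocks JAK-STAT signalling downstream of cytokine receptors. Gem is a small GTPase that inhibits calcium channels. Nfkbia encodes IκBα, which holds NF-κB in the cytoplasm, and Tsc22d3 encodes GILZ, a leucine zipper protein induced by glucocorticoids.

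Stretches just upstream of the start sites of 6 of the genes are shown here, because 5 of them varied together from cell to cell (below) and Nfkbia did not; the motifs do not follow that split, since Tsc22d3, which did not vary with them, holds the CRE core and a STAT motif, and Nr4a1 holds an NF-κB motif as Nfkbia does. They were taken from RefSeq's promoter table (GRCm38.p6), each from 250 bases before to 50 after a start, which had an entry for 9 of the 10 genes (not Gem). Each is written 5′ to 3′ on the gene's strand, with the motif in capitals. Dusp1 (minus strand, chr17:26508588-26508635) and Btg2 (minus strand, chr1:134079294-134079341) hold a full cyclic AMP response element (CRE). Nr4a1 (plus strand, chr15:101266596-101266830) holds 4 copies of the CRE core, which lie here as its reverse complement. Zfp36 (minus strand, chr7:28379267-28379296) holds a CArG box, the letters that serum response factor binds. Socs3 (minus strand, chr11:117969492-117969540) holds a STAT motif, and Nfkbia (minus strand, chr12:55492648-55492696) an NF-κB motif. By GENCODE M21 (GRCm38) the Zfp36 stretch lies in the 5′ UTR of a longer annotated transcript, and those of Socs3, Nr4a1 and Dusp1 lie inside an intron of one.
Dusp1: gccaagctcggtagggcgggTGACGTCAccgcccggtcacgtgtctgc
Btg2: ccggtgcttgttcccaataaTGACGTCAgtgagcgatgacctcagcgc
Nr4a1: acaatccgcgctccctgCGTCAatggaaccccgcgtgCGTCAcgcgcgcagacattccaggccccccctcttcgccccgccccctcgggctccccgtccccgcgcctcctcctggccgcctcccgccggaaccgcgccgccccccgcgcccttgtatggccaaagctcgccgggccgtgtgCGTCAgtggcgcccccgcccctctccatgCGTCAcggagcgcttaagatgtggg
Zfp36: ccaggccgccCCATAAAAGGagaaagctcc
Socs3: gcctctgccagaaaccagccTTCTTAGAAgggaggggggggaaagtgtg
Nfkbia: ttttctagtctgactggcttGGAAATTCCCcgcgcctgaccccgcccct

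Motifs were counted on both strands of the windows, and motifs may overlap. The full CRE (TGACGTCA) occurred in 2 of the 9 genes, Dusp1 and Btg2, and in 1.79% of all 32851 windows. Its core (TGACG, which every full CRE contains) occurred in 5 genes, Nr4a1, Nr4a2, Dusp1, Btg2 and Tsc22d3, and in 20.8% of windows. The CArG box occurred in Zfp36 alone, against 1.63% of windows. The STAT motif (TTCNNNGAA) occurred in Zfp36, Socs3 and Tsc22d3, against 8.3%, and the NF-κB motif in Nr4a1 and Nfkbia, against 4.51%. The AP-1 motif (TGANTCA) was in Zfp36l1 alone, against 7.81%, and the Nr4a response element (AAAGGTCA) was in 0 of the 9, against 1.51%. The GC box (GGGCGG) was in 8 genes, against 35.7%, and the TATA box (TATAAA) in Nr4a2, Zfp36l1 and Nfkbia, against 13.6%. Some genes have several windows, and these counts describe letters, not bound sites.

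The 3′ UTR is the other region these genes are known for, since Zfp36 proteins bind AU-rich letters there. The septamer TATTTAT occurred in the longest annotated 3′ UTR (GENCODE M21) of 8 of the 10 genes, and in 30.4% of the 5318 genes compared between the sorts that have one. Zfp36, Zfp36l1, Dusp1 and Gem each held 3 copies, Socs3 and Nfkbia held 2, and Nr4a2 and Btg2 held 1. Nr4a1 and Tsc22d3 held 0. The 2 Socs3 copies overlap by 1 base, and only the first is in capitals below. One site is printed for each of 4 genes, with the septamer in capitals: Zfp36 itself (minus strand, chr7:28376967-28376993), Btg2 (minus strand, chr1:134077250-134077276), Socs3 (minus strand, chr11:117966140-117966166) and Gem (plus strand, chr4:11713931-11713957).
Zfp36: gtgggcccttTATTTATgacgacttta
Btg2: aatgaagagcTATTTATacatgttttt
Socs3: tttgcacataTATTTATatttatactc
Gem: caagagtcagTATTTATtcataggaaa

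A barcode counted as a cell when it belonged to the library's own set (1 to 96 in Dlk1+, from 97 on in Dlk1-), was not among 10 barcodes (17, 20 to 24 and 29 to 32) that held transcripts in libraries of both sorts, and carried at least 1000 transcripts. Barcode set and sort therefore cannot be told apart. This left 541 cells, 321 Dlk1- (96, 36, 95 and 94 in replicates 1 to 4) and 220 Dlk1+ (86, 27, 26 and 81). The library totals were 230443 to 517559 transcripts in Dlk1- and 39073 to 456925 in Dlk1+. Dlk1+ replicate 3 stood apart, with a median of 1300 transcripts per cell against 3421 to 5584 in the other libraries, and Dlk1+ replicate 2 had the next smallest total, 102499. All 9 HSC markers were detected, at a summed 1561 to 2530 CPM (counts relative to all transcripts of the library) in Dlk1+ and 1853 to 2392 in Dlk1-. Among the lineage markers at 0 were Cd3e, Cd3d, Cd3g, Trac, Pax5, Ighm, Lyz2, Csf1r and Cdh5. Other members of their lists were detected, so these genes alone do not show a cell type to be absent. Erythroid markers summed to 58.6 to 147 CPM in Dlk1+ and 21.7 to 79.9 in Dlk1-. Endothelial markers summed to 51.2 to 105 CPM in Dlk1+ and 56.4 to 122 in Dlk1-. B cell markers summed to 0 to 25.3 CPM in Dlk1+ and 16.8 to 34.7 in Dlk1-. Granule and monocyte markers (8 of 10 in the tables) summed to 191 to 367 CPM in Dlk1- and 0 to 6827 in Dlk1+, where the maximum came from 1 barcode of replicate 4, number 91, with 2699 such UMIs among its 36327. The 2 detected T and NK cell markers of 6 summed to 63.2 to 146 CPM in Dlk1+ and 17.4 to 50.3 in Dlk1-, and the 6 stromal markers to 28.5 to 107 and 7.73 to 30.4. The part of these cells and of depth in the differences below was not tested, except where a value without them is given. Dlk1 itself was higher in the Dlk1+ libraries, by 4.80 on the log2 scale (limma-voom, adjusted p = 5.01e-05).

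Together the 10 genes made up 2683 CPM ± 441 (SD, n = 4) of the Dlk1- libraries and 1966 CPM ± 1243 (SD, n = 4) of the Dlk1+ libraries. The values in Dlk1- replicates 1 to 4 were 2388, 2804, 2288 and 3253 CPM, and in Dlk1+ 2287, 1513, 563 and 3502 CPM. The sorts overlapped, and the spread among Dlk1+ libraries was wider than the difference. The lowest sums were in Dlk1+ replicates 2 and 3, the libraries with the fewest transcripts, while the highest of all was Dlk1+ replicate 4. CPM is the sum over the cells of a library, relative to all its transcripts. Since each molecule is counted at its 3' end, levels can be set side by side between genes.

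Zfp36 was the most abundant of the 10, with a mean of 753 CPM over the 8 libraries, and it exceeded Nr4a1 (359 CPM) in 8 of 8. The genes below that overlapped in order. Nr4a1 exceeded Dusp1 (281 CPM) in 5 of 8 libraries, and Dusp1 exceeded Nr4a2 (237 CPM) in 5 of 8. Nfkbia (177 CPM), Socs3 (168 CPM) and Btg2 (160 CPM) did not separate, each neighbour being ahead in 4 of 8. Tsc22d3 (114 CPM) exceeded Zfp36l1 (46.9 CPM) in 7 of 8, and Zfp36l1 exceeded Gem (28.6 CPM) in 6 of 8. Nr4a3, the third member of its family, averaged 0.766 CPM, so that Nr4a1 and Nr4a2 carried nearly all Nr4a transcripts of these cells.

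**Figure D1:**
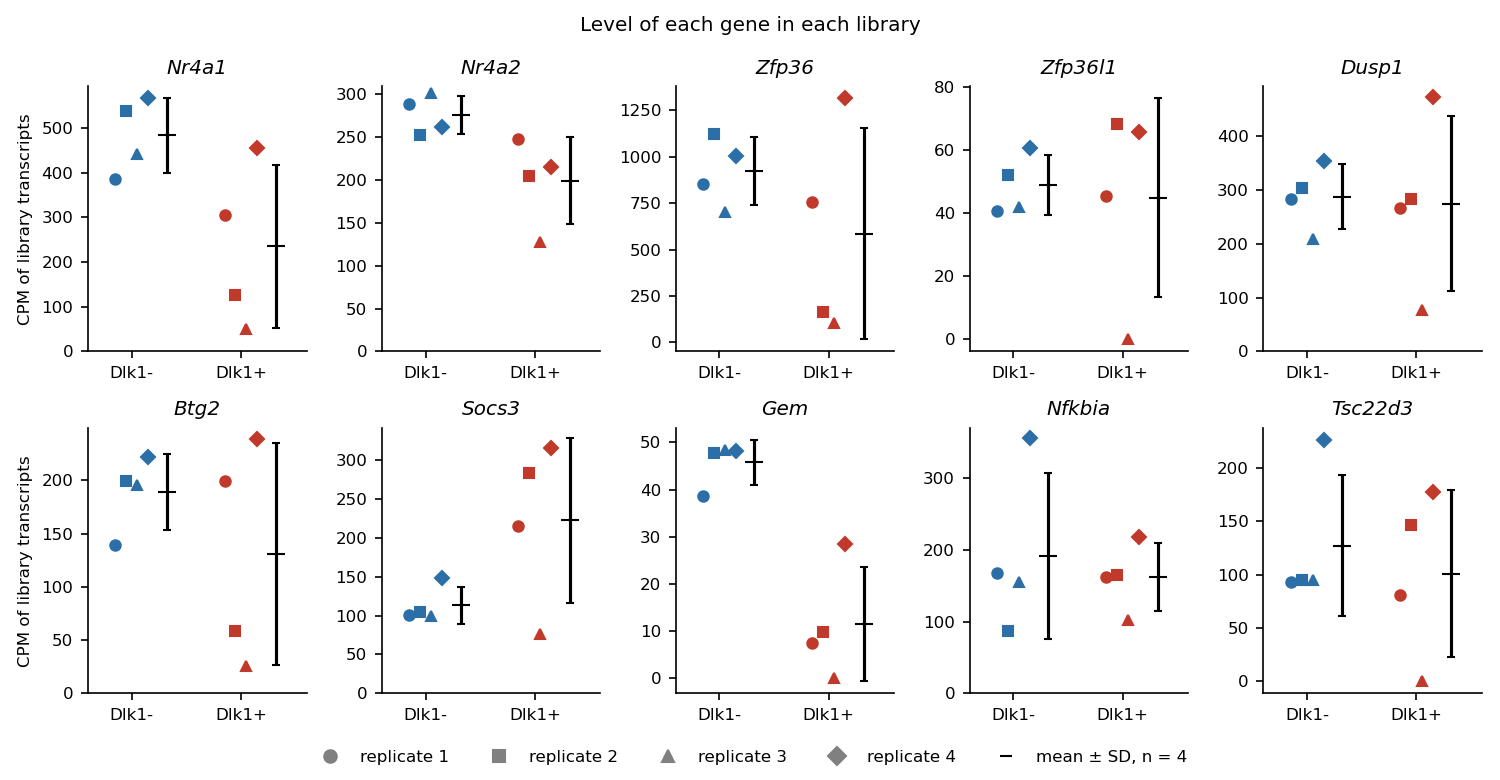
Level of each gene (CPM, linear axis) in the 4 Dlk1- and 4 Dlk1+ libraries, with a marker shape per replicate and the mean ± SD beside the points. Gem and Nr4a2 are the genes whose sorts do not overlap in kept cells, and Dlk1+ replicate 3 (triangle) is the lowest Dlk1+ point in every panel.

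Nr4a1 stood at 386, 538, 442 and 568 CPM in Dlk1- replicates 1 to 4 and at 306, 127, 51.2 and 455 CPM in Dlk1+. All Dlk1+ libraries but replicate 4 lay below every Dlk1- library. The means were 484 CPM ± 84.3 (SD, n = 4) and 235 CPM ± 182 (SD, n = 4), and the fitted difference of Dlk1+ minus Dlk1- was -1.02 on the log2 scale (SE 0.39; limma-voom, adjusted p = 0.694). The 2 low Dlk1+ libraries rest on 13 and 2 Nr4a1 UMIs, against 121 and 208 in replicates 1 and 4. Within plate 5 the difference was -0.92 and within plate 6 it was -1.23, and among cells of at least 2000 transcripts it was -0.89. Without Dlk1+ replicate 3 the difference was -0.62. The direction held in 24 of 24 alternative settings, which reuse these same libraries, with no adjusted p past 0.05.

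Nr4a2 stood at 288, 252, 301 and 262 CPM in Dlk1- and at 248, 205, 128 and 215 CPM in Dlk1+. In kept cells every Dlk1+ library lay below every Dlk1- library, though the nearest were 251.7 and 247.7 CPM. Dlk1+ replicate 3 rests on 5 Nr4a2 UMIs among 39073 transcripts of kept cells. Its own barcodes, cells below the minimum included, held 22 among 77742 UMIs. The separation thus depends on the minimum of transcripts per cell and is not read as an order of the sorts. The means were 276 CPM ± 22.6 (SD, n = 4) and 199 CPM ± 50.6 (SD, n = 4), and the fitted difference was -0.38 (SE 0.26; limma-voom, adjusted p = 0.815). The fitted difference was -0.15 within plate 5, -0.73 within plate 6 and -0.21 with no minimum of transcripts per cell.

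Zfp36 stood at 852, 1124, 702 and 1006 CPM in Dlk1- and at 758, 166, 102 and 1316 CPM in Dlk1+. The Dlk1+ libraries fell at both ends, with the 2 lowest and the single highest value of the 8. The fitted difference was -1.05 (SE 0.51; limma-voom, adjusted p = 0.757), and without Dlk1+ replicate 3 it was -0.40. Its relative Zfp36l1 was at 40.6, 52.1, 42.1 and 60.8 CPM in Dlk1- and at 45.5, 68.3, 0 and 65.7 CPM in Dlk1+, with a fitted difference of 0.02 (SE 0.37). Dlk1+ replicate 3 gave 0 Zfp36l1 UMIs, which at its depth allows up to 76.8 CPM, above every other library, so that this 0 sets no lower level.

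Dusp1, the MAP kinase phosphatase, was at 282, 304, 208 and 354 CPM in Dlk1- and at 265, 283, 76.8 and 473 CPM in Dlk1+. The sorts overlapped, and the fitted difference was -0.02 (SE 0.33). Btg2 was at 139, 200, 196 and 222 CPM in Dlk1- and at 200, 58.6, 25.6 and 239 CPM in Dlk1+. As with Zfp36, Dlk1+ replicates 2 and 3 were the lowest of the 8 and replicate 4 the highest. The fitted Btg2 difference was -0.30 (SE 0.38).

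Socs3, the cytokine signalling inhibitor, was higher in most Dlk1+ libraries. It was at 100.5, 104, 98.8 and 149 CPM in Dlk1- and at 215, 283, 76.8 and 315 CPM in Dlk1+. Dlk1+ replicates 1, 2 and 4 lay above every Dlk1- library, while replicate 3, where 3 UMIs give a 95% Poisson interval of 15.8 to 224 CPM, lay below them all. The means were 222 CPM ± 106 (SD, n = 4) and 113 CPM ± 23.9 (SD, n = 4), a fitted difference of 1.05 (SE 0.30; limma-voom, adjusted p = 0.560). Without Dlk1+ replicate 3 the difference was 1.27 (SE 0.17; limma-voom, adjusted p = 0.00161), the single setting of 24 in which any of the 10 genes passed the threshold; 3 of 6327 genes, 0.0474%, passed in that fit. The adjusted p ranged from 0.00161 to 0.961 over the 24 settings, in all of which the difference was above 0. It was 1.31 within plate 5 (limma-voom, adjusted p = 0.0665) and 0.62 within plate 6 (adjusted p = 0.961), and without barcode 91 it was 1.09.

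Gem was the rarest of the 10 and differed most in fold. It was at 38.6, 47.7, 48.4 and 48.2 CPM in Dlk1- and at 7.58, 9.76, 0 and 28.5 CPM in Dlk1+. Every Dlk1+ library lay below every Dlk1- library. The values rest on 20, 11, 23 and 23 UMIs in Dlk1- and on 3, 1, 0 and 13 in Dlk1+. The 95% Poisson intervals were 1.56 to 22.2, 0.247 to 54.4 and 15.1 to 48.7 CPM in Dlk1+ replicates 1, 2 and 4, and the 0 of replicate 3 allows up to 76.8 CPM. The upper bound of replicate 1 lay below the lower bounds of all 4 Dlk1- libraries, which ran from 23.6 to 30.7 CPM; those of the other Dlk1+ libraries did not. The fitted difference was -1.52 (SE 0.38; limma-voom, adjusted p = 0.541) and stayed between -1.93 and -1.26 in the alternatives.

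Nfkbia was at 168, 86.8, 156 and 356 CPM in Dlk1- and at 162, 166, 102 and 219 CPM in Dlk1+. Tsc22d3 was at 92.8, 95.5, 94.6 and 226 CPM in Dlk1- and at 80.9, 146, 0 and 177 CPM in Dlk1+. For both, Dlk1- replicate 4 was the highest library of all and the sorts overlapped. The fitted differences were 0.03 (SE 0.32) for Nfkbia and -0.17 (SE 0.42) for Tsc22d3, and both signs turned in some alternatives.

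Across the whole table, 0 of the 10 genes passed an FDR of 0.05 by limma-voom, where 2 of 5666 genes tested (0.0353%, Dlk1 and Timp3) did. By limma-voom without adjustment, 3 of the 10 genes (Gem, Socs3 and Nr4a1) were under 0.05, against 6.51% of all genes. In kept cells, groups did not overlap in CPM, with Dlk1+ lower, for 2 of the 10, Gem and Nr4a2, against 2.03% of all genes. With Dlk1+ higher it was 0 of the 10, against 1.11%. The fitted value was below 0 for 7 of the 10 and for 55.2% of all genes, with a median of -0.23 against -0.04. The list was chosen with such values known, so these counts describe it and do not set it apart. Without Dlk1+ replicate 3 the median of the 10 was 0.01 and 5 of the 10 were below 0. Libraries of these sizes were simulated with the same dispersion, 0.1, for all genes and libraries. The test recovered 3.11% of genes changed 2-fold (5349 genes), so a 2-fold difference was rarely called there. It recovered 88.9% of those changed 4-fold (5221 genes) and 100% of those changed 8-fold (5305 genes). The dispersion was not estimated from these libraries, so the recovery at their own spread is not known.

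**Figure D2:**
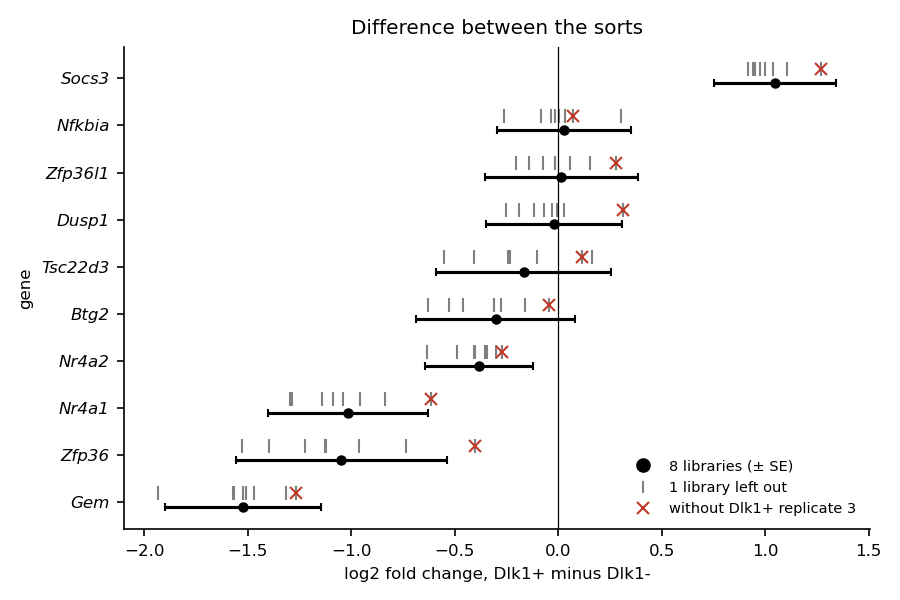
Fitted log2 difference of Dlk1+ minus Dlk1- for each gene with its SE (black, 8 libraries), and the value when 1 library is left out (gray ticks), with Dlk1+ replicate 3 marked by a red cross. Gem, Zfp36, Nr4a1, Nr4a2 and Btg2 lie below 0 and Socs3 above 0 in every case, while Dusp1, Nfkbia, Zfp36l1 and Tsc22d3 lie on both sides.

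In each list of related genes, 0 were called. Among other feedback genes, 22 of 36 were tested, 10 with a fitted value above 0 and 12 below, with a median of -0.11. The 3 most abundant were Pim1 (a kinase and STAT target, 0.22, SE 0.26), Zfp36l2 (another Zfp36 family member, -0.68, SE 0.42) and Ppp1r15a (which recruits a phosphatase to eIF2α, 0.10, SE 0.38). Zfp36l2 was -0.02 within plate 5 and -1.58 within plate 6, and -0.09 without Dlk1+ replicate 3. Among AP-1 and early response genes, 18 of 22 were tested, 9 above and 9 below 0, with a median of 0.00. Fos (0.14, SE 0.22), Jund (0.77, SE 0.27) and Jun (0.09, SE 0.21), all AP-1 subunits, were its most abundant. Glucocorticoid-responsive genes (6 of 8 tested) were 3 above and 3 below, with Txnip at -0.87 (SE 0.59), Klf9 at 0.29 (SE 0.29) and Per1 at 0.11 (SE 0.29). Without Dlk1+ replicate 3 Txnip was -0.07. Heat shock genes (7 of 10 tested) were 5 above and 2 below, with a median of 0.26 and Hsp90ab1 at 0.26, Hsp90aa1 at 0.44 and Hspa5 at 0.42. In Dlk1+ replicate 3, where the 10 genes summed to 563 CPM, the AP-1 and early response list summed to 9164 CPM, within the 7871 to 10912 CPM of the Dlk1+ libraries. Jund (3763 CPM) and Fos (2201 CPM) carried that sum, while other members, named after their values were seen, went both ways there. Junb was at 282 CPM against 935 to 1129 in the other Dlk1+ libraries. Fosb was at 102 against 359 to 755, and Ier2 at 128 against 422 to 507. Ier3 was instead highest there, at 512 CPM against 230 to 390, as was Fosl2, at 51.2 against 20.2 to 29.3. In this library 1 count equals 25.6 CPM, so the low values rest on few counts. The heat shock list reached its highest sum there, 5734 CPM.

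In single cells the median number of the 10 genes with at least 1 UMI was 4. Of 541 cells, 37 had UMIs of 8 or more of the genes, 2 had all 10 and 30 had none, 13 of these among the 26 cells of Dlk1+ replicate 3. The genes took 0.276% of all UMIs, and up to 1.42% in 1 cell. By library this share was 0.236 to 0.329% in Dlk1- and 0.0572 to 0.355% in Dlk1+. On barcodes that no cell should use (outside the 10 left out), the Dlk1- libraries held 25 UMIs of these genes among 14093, 0.177% (95% Wilson interval 0.120 to 0.262%), against 0.274% (0.266 to 0.282%) on their own barcodes. The Dlk1+ libraries held 26 among 9570, 0.272% (0.185 to 0.398%), against 0.273% (0.263 to 0.283%) on their own. In Dlk1+ replicate 3 it was 3 among 486 UMIs, against 61 among 77742 on its own barcodes, cells below the minimum included. The share of these genes on unused barcodes was thus below that of the own barcodes in Dlk1-, and in Dlk1+ its interval covered the own share, while unused barcodes held few UMIs of any gene. The intervals cover counting error only.

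Shares of cells with a UMI were compared at an equal 1000 UMIs per cell, to which every kept cell could be thinned. A Zfp36 UMI was expected in 42.6 to 57.6% of cells in the Dlk1- libraries and in 49.7, 16.5, 11 and 67.4% in Dlk1+ replicates 1 to 4. For Nr4a1 it was 26.6 to 36.6% in Dlk1- and 23.8, 12.3, 5.05 and 34.5% in Dlk1+. Both genes were thus seen in fewer cells of Dlk1+ replicates 2 and 3, the order their CPM had. Socs3 was seen in 8.0 to 14.3% of Dlk1- cells and in 18.4, 21.7, 6.0 and 22.5% of Dlk1+ cells, with replicate 3 again alone among Dlk1+ libraries below the Dlk1- range. Gem was seen in 3.9 to 4.8% of Dlk1- cells and in 1.0, 1.1, 0 and 3.1% of Dlk1+ cells. Unthinned, Gem was seen in 13.8 to 14.7% of Dlk1- cells and in 3.49, 3.7, 0 and 16.0% of Dlk1+ cells, where replicate 4 lay above every Dlk1- library although its CPM lay below them, so no order is read from these shares. Unthinned over all libraries, 77.1% of all cells had a Zfp36 UMI, 51.4% an Nr4a1 UMI and 11.6% a Gem UMI. No Dlk1+ cell had more than 1 Gem UMI, while single Dlk1- cells reached 5.

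Most of the genes varied between cells more than others of their level. At 2000 UMIs per cell, in the 493 cells deep enough of 7 libraries (Dlk1+ replicate 3 was left out), the variance over the mean (Fano factor, pooled within libraries) was 2.40 for Zfp36, 2.20 for Nr4a1, 1.81 for Dusp1, 1.75 for Nr4a2, 1.71 for Btg2 and 1.65 for Socs3. Comparison was with genes that had a UMI in at least 10% of cells. For 9 of the 10 the Fano factor exceeded that of 93.7 to 99.6% of genes within 1.5-fold of the same level. Tsc22d3 was the exception, at 1.10, above 61.9% of such genes. Gem, at 1.57 with a mean of 0.0908 UMIs, had the highest rank of the 10. Its cells with several UMIs were all Dlk1-, since no Dlk1+ cell had more than 1. With a UMI in 11.6% of cells, Gem lay close to the 10% bound, which leaves rarer genes out of its comparison.

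Across cells at full depth, 6 of the genes went together: Nr4a1, Nr4a2, Zfp36, Dusp1, Btg2 and Socs3. Correlations were taken on log2(1 + UMIs per 5000) with library means removed, over 541 cells that share library and depth, and they are descriptions. Nr4a1 and Zfp36 had the highest, r = 0.52, positive in 7 of 8 libraries. Nr4a1 and Nr4a2 had r = 0.48 and were positive in 8 of 8, and Nr4a1 and Btg2 had r = 0.47. Put as cells, 61.2% of cells with an Nr4a1 UMI also had an Nr4a2 UMI, against 20.2% of cells without one. Zfp36 went with Btg2 (r = 0.43), Dusp1 (r = 0.40, positive in 8 of 8) and Socs3 (r = 0.35, positive in 8 of 8). All 15 pairs within these 6 genes lay between 0.17 and 0.52, and 4 were positive in 8 libraries, 7 in 7 and 4 in 6 (Zfp36 with Btg2, and Nr4a2 with Zfp36, Dusp1 and Socs3).

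Zfp36l1 lay between, with r = 0.19 with Nr4a1 (positive in the 7 libraries where it was seen) and 0.16 with Dusp1, about the lowest value among the 6 (0.17, Dusp1 with Socs3), and 0.09 to 0.15 with the other 4. Gem, Nfkbia and Tsc22d3 had r of at most 0.09 with any of the 10, and their highest genes of any kind, Golph3 for Gem (r = 0.20), Gtf2h1 for Nfkbia (r = 0.19) and Phtf2 for Tsc22d3 (r = 0.15), were no early response genes of the lists. Gem has few UMIs, and in sparse counts a weak correlation shows little. Nfkbia (177 CPM) and Tsc22d3 (114 CPM) lay near Btg2 (160 CPM) in level.

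**Figure D3:**
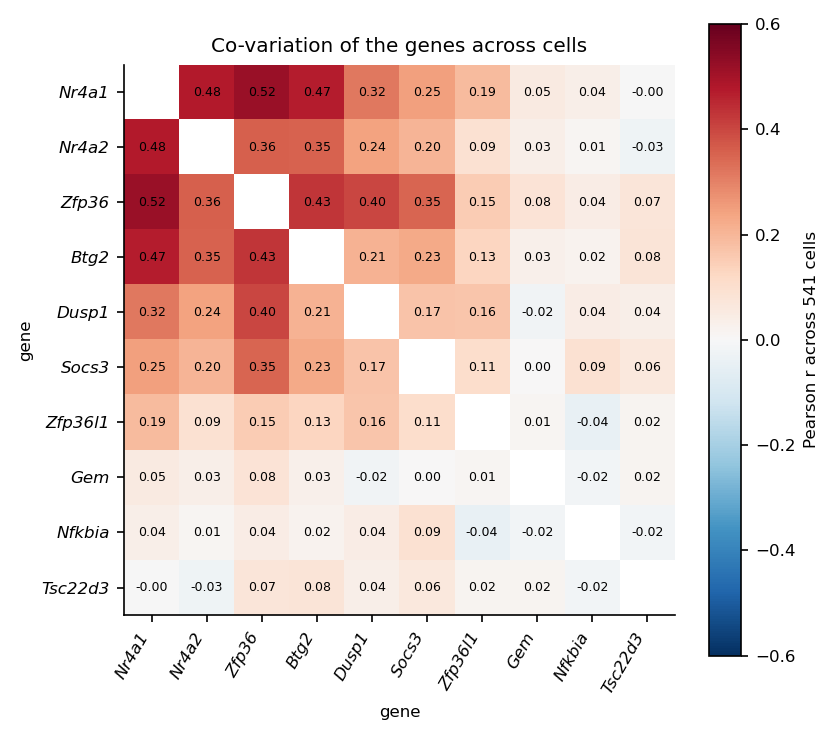
Pearson r of each pair of the 10 genes across 541 cells, library means removed, from blue (negative) through white (0) to red (positive). The 6 genes from Nr4a1 to Socs3 form a block of 0.17 to 0.52, Zfp36l1 has 0.09 to 0.19 with them, and Gem, Nfkbia and Tsc22d3 lie near 0 with all others.

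Over the 45 pairs the median r was 0.08 (from -0.04 to 0.52), 86.7% were positive and 44.4% exceeded 0.1. Over the 16287778 pairs of the 5708 genes with a UMI in at least 10% of cells the median was 0.01, 61.2% were positive and 4.61% exceeded 0.1. Thinning to an equal depth lowered such values: Nr4a1 with Zfp36 was 0.43 at 2000 and 0.18 at 1000 UMIs per cell. At 1000 UMIs the 10 pairs among Nr4a1, Nr4a2, Zfp36, Dusp1 and Btg2 lay between 0.13 and 0.20. Socs3 kept 0.17 with Zfp36 and 0.13 with Btg2 there, but had 0.08 with Nr4a1, 0.04 with Nr4a2 and -0.03 with Dusp1, so that its place among the 6 was not seen at that depth. At full depth Nr4a1 with Zfp36 was 0.05 and -0.12 in Dlk1+ replicates 2 and 3, over 27 and 26 cells. In the other 6 libraries this pair was at 0.40 to 0.73. By sort Nr4a1 with Zfp36 was 0.58 in the 321 Dlk1- cells and 0.40 in the 220 Dlk1+ cells, and Nr4a1 with Nr4a2 was 0.54 and 0.35. Of the 15 pairs, 13 were higher in Dlk1- cells and 2 in Dlk1+ cells, Zfp36 with Socs3 (0.32 and 0.41) and Nr4a1 with Socs3 (0.24 and 0.27). These differences by sort were not tested.

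The 3 genes most like each of the 6 were AP-1 or early growth response factors or others of the 6. Of all 5707 other genes compared, Fos ranked first for Nr4a1 (r = 0.56), Zfp36 (r = 0.63) and Dusp1 (r = 0.41) and second for Nr4a2 (r = 0.41) and Btg2 (r = 0.44). Egr1, a zinc finger early response factor, ranked second for Zfp36 (r = 0.55) and Socs3 (r = 0.31), and Jund the third for Zfp36 (r = 0.55). Nr4a1 ranked first for Nr4a2 and for Btg2, and Zfp36 for Socs3. The summed level of the 10 genes followed that of the AP-1 and early response list, which holds none of them, with r = 0.74 over 541 cells. It was 0.62 to 0.82 in 7 libraries and 0.30 in Dlk1+ replicate 3. With the other feedback genes the sum had r = 0.54, with the glucocorticoid-responsive genes 0.24 and with the heat shock genes 0.18. Of other measures of the cell, HSC markers had r = 0.18 (positive in 6 of 8 libraries), the share of ribosomal protein transcripts 0.16 (7 of 8) and megakaryocyte markers 0.11 (7 of 8). The share of the repeat-like transcripts Gm10800 and Gm26870 had r = -0.13 and was negative in every library, down to -0.37, and cycling markers had -0.10. Depth (-0.03), mitochondrial share (0.06) and Dlk1 (0.02) lay nearest to 0.

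**Figure D4:**
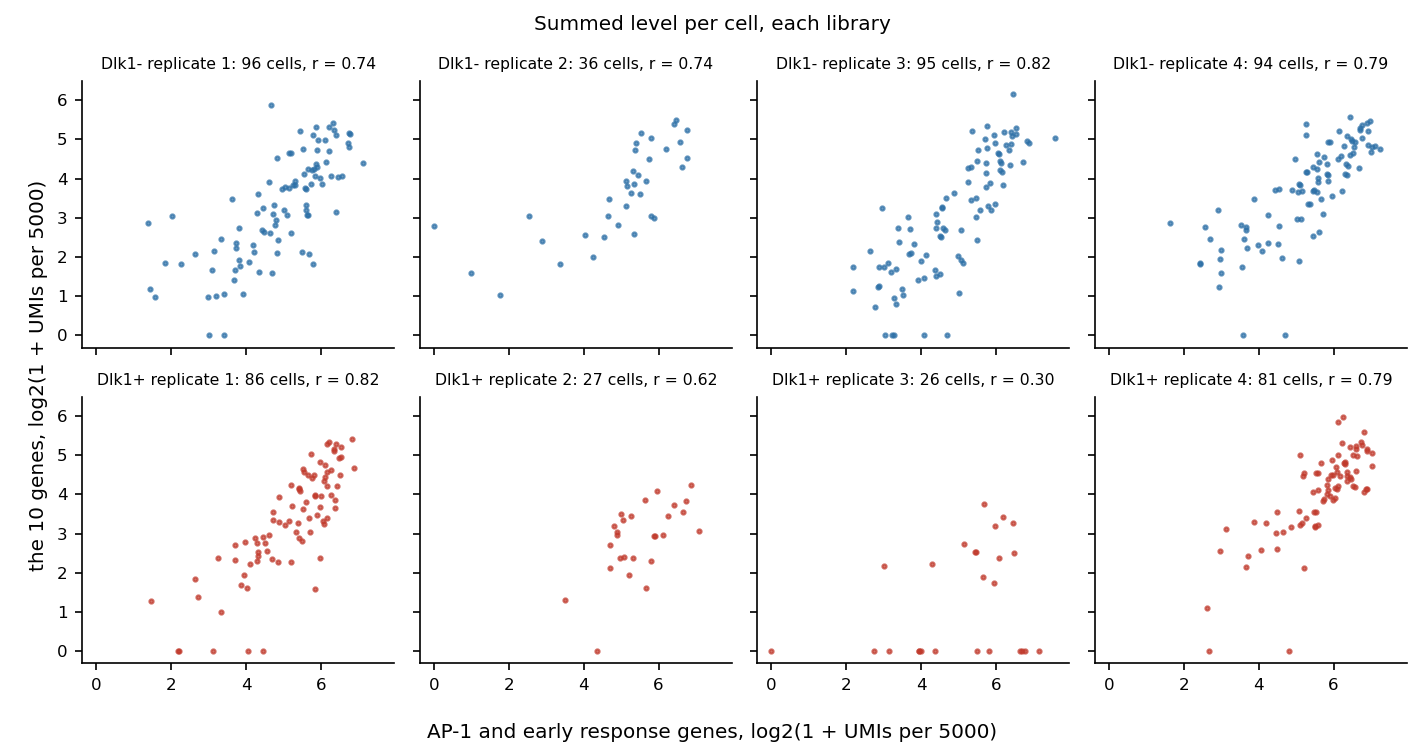
Summed level of the 10 genes (vertical) against that of the AP-1 and early response list (horizontal) in each cell, both as log2(1 + UMIs per 5000), in 8 panels for the libraries (blue Dlk1-, red Dlk1+). Cells lie along 1 continuous band in 7 libraries (r = 0.62 to 0.82), and in Dlk1+ replicate 3 (r = 0.30) 13 cells lie at 0 on the vertical axis.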

How the data were processed

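The authors deposited, for each library, a table of estimated counts (genes in rows, barcodes in columns). The submitters' processing notes name BWA 0.6.2-r126 and mm10 without further steps. Each value inverted to a whole UMI count under the usual collision correction for 4096 identifiers (within 3.64e-12 of a whole number). Transcripts of kept cells were summed per library, and cells were never replicates. The planned edgeR quasi-likelihood test was replaced by limma-voom (limma 3.58.1, R 4.3.3), as foreseen for a unit that a count model could not take, because the unit could not be verified automatically. Scaling used the trimmed mean of M-values (TMM). A gene was tested when its total reached 15 and when 4 or more libraries had the CPM that 10 counts give in a library of median size. P-values were two-sided and adjusted by Benjamini-Hochberg over all 5666 genes, with sort as the only term. The fit and the correlations were tested on simulated data. The genes and lists were chosen with earlier results of these data known. Named besides the 10 were the 3 most abundant of each list, any called, and for each gene the 3 most alike. Nr4a3, genes called in 1 alternative, and the less abundant early response genes given for Dlk1+ replicate 3 were named after their values were seen. No doublet caller was run. Python 3.11.15 was used with scipy 1.17.1. Alternatives covered scaling, filter, block, plate, cell minimum, barcodes and each library left out. The number of columns that belonged to samples outside these libraries was 0.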

Additional observations from a re-analysis of the deposited data

Results flagged for a closer look

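Of 20 groups of 4 libraries (10 genes in 2 sorts), 3 had a library whose gap to its nearest neighbour exceeded Dixon's 95% critical share of the range, where chance alone flags about 1 in 20. Socs3 was at 148.8 CPM in Dlk1- replicate 4, against 104.2 in the next highest Dlk1- library. Tsc22d3 was at 226.4 CPM in the same library, against 95.49 in the next. Gem was at 38.65 CPM in Dlk1- replicate 1, below the 47.74 of the next lowest, and its counting interval covers that gap. Outside the cells, 25 UMIs of the 10 genes lay on unused barcodes of the Dlk1- libraries and 26 on those of the Dlk1+ libraries. The 10 left-out barcodes held 2 among 25978 UMIs in the Dlk1- libraries. In Dlk1+ they belong to the own set and held more in replicates 1 and 4. Of Zfp36 alone they held 36, 0, 0 and 64 UMIs in Dlk1+ replicates 1 to 4. The other own barcodes there held 300, 17, 8 and 601.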

How the results depend on the processing

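The count of 0 of the 10 genes called held in all alternatives but one, with a range of 0 to 1 when a library was left out (Socs3, without Dlk1+ replicate 3). For the other lists it was 1 within plate 5 (Cdkn1a) and 0 to 3 with a library left out (Cdkn1a, Ier3 and Myc without Dlk1+ replicate 4). Over all genes, 2 calls became 1 with the replicate block, within plate 6, at 2000 transcripts per cell and with limma-trend, 5 within plate 5, 4 with the 10 barcodes kept, and 1 to 19 with a library left out (19 without Dlk1+ replicate 4). Same-numbered libraries correlated at 0.0516, 0.0367, 0.0496 and 0.0644 in their deviations, each best with its own number. Libraries of different numbers correlated at 0.0045 or less. This hints at a weak pairing, which the main fit, with sort as its only term, leaves out. The replicate block, an alternative, includes it.

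Signs that turned belonged to differences near 0; the cause was not tested. Zfp36l1 was -0.0097 by library size alone, -0.0622 without a filter, -0.0276 with the replicate block, -0.76 within plate 6, -0.28 with limma-trend, -0.0014 by median of ratios and -0.20 to 0.28 with a library left out. Nfkbia was -0.10 without a filter, -0.11 with the block, -0.56 within plate 6, -0.13 at 2000 transcripts, -0.088 with limma-trend and -0.26 to 0.31 with a library left out. Dusp1 ran from -0.25 to 0.31 with a library left out, and Tsc22d3 from -0.55 to 0.16, being 0.17 within plate 5. Ppp1r15a was -0.45 within plate 6 and -0.21 with limma-trend, Fos -0.0347 at 2000 transcripts, Jun -0.0747 within plate 6 and -0.32 at 2000 transcripts, and Per1 -0.10 within plate 6 and -0.0591 with limma-trend. With a library left out Ppp1r15a ran from -0.23 to 0.48, Jun from -0.0561 to 0.19 and Per1 from -0.0548 to 0.27.

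The mean share of cells with a UMI was 16.9% at 1000 UMIs, 26.8% at 2000 and 38.8% unthinned. The median r of 0.08 was 0.16 in Dlk1- replicate 3 alone and -0.0804 in Dlk1+ replicate 3 alone. Without a filter the median of all genes moved by 0.28 on the log2 scale, and within plate 6 by -0.11. DESeq2 and edgeR were not run. Limma-trend, the median of ratios, the fit without barcode 91, the CRE core and the septamer were chosen after seeing the data. Depth limits Gem, Zfp36l1 and all values of Dlk1+ replicate 3.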
